A study of Rattus norvegicus with 16 samples.

Results

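Microglia are the resident macrophages of the brain, and a small set of genes is used to recognise them. The 5 such genes described here are Aif1, Itgam, Csf1r, Cx3cr1 and Spi1, taken by identifier (ENSRNOG00000000853, ENSRNOG00000019728, ENSRNOG00000018414, ENSRNOG00000018509 and ENSRNOG00000012172 in that order) out of 30560 genes listed, and all 5 passed the filter on low counts that left 11902 genes. The question was whether lipopolysaccharide (LPS) lowers them and whether they are nearer to Control when apolipoprotein A-I (ApoA-I) is given with it. LPS, an outer-membrane glycolipid of Gram-negative bacteria that macrophages sense through Toll-like receptors, did not act on them alike: Csf1r fell 4.71-fold and Cx3cr1 fell 31.1-fold relative to Control, while Aif1, Itgam and Spi1 rose 1.70-fold, 1.61-fold and 1.44-fold. The sizes of these rises depended on how the libraries were scaled, and on a per-length scale (described below) Spi1 did not pass the test. With ApoA-I, the principal protein of HDL particles, LPS-treated cells had 2.07 times as much Csf1r and 5.37 times as much Cx3cr1 as with LPS alone, and both stayed below Control.

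The libraries were made from bulk RNA of wild type primary rat microglia kept to day 12 in vitro, 4 per group. The groups were LPS with ApoA-I, LPS, ApoA-I and Control; LPS was used at 100 ng/ml for 20 hours and ApoA-I at 100 ug/ml of medium. No label ties a replicate to its own culture or animal, so the p-values speak of the spread among these 16 libraries, and that spread may be technical. Total estimated counts ran from 12304916 to 17262383 per library, and the lowest count of any of the 5 genes was 215. The deposited tables hold identifiers without symbols, and the name table used here (RefSeq, GRCr8) gives an Ensembl identifier for 0 of 47357 genes. The symbols came with the list of the 5 identifiers and were not checked against an annotation. In bulk RNA, fewer cells of a type and less RNA per cell cannot be told apart. Markers of other cell types could not be looked up without symbols, so their part in the results was not tested.

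The 5 genes have different jobs. Csf1r is the receptor tyrosine kinase for the growth factors CSF-1 and IL-34, on which microglia depend for survival, and Cx3cr1 is the receptor for fractalkine, a chemokine that neurons display and shed. Aif1 encodes Iba1, a calcium- and actin-binding protein used as the standard stain for microglia, and Itgam encodes the integrin alpha M chain (CD11b), part of complement receptor 3. Spi1 encodes PU.1, an ETS-family transcription factor needed for macrophage and microglial development, whose binding sites contain the core letters GAGGAA. In mouse, loss of Cx3cr1 transcript is a known part of the response of macrophages and microglia to bacterial products.

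All 5 genes were abundant in unstimulated cells on a per-length scale (TPM, in which reads are divided by transcript length and each library is scaled to the same sum). In Control libraries, Csf1r had 1683 ± 97.6 TPM, Aif1 733 ± 28.6, Spi1 657 ± 52.4, Itgam 296 ± 12.9 and Cx3cr1 263 ± 20.9 TPM (SD, n = 4). The lowest of them ranked 523 from the top of the 30560 listed genes in Control. Aif1 and Spi1 overlapped there, and each of the other neighbours in this order had ranges that did not overlap. The order in ApoA-I libraries was the same, again with only Aif1 and Spi1 overlapping. In LPS libraries the order was Aif1 with 916 ± 55.2 TPM, Spi1 with 710 ± 27.3, Itgam with 357 ± 28.4, Csf1r with 263 ± 26.4 and Cx3cr1 with 6.29 ± 0.340 (SD, n = 4), with no overlap between neighbours. In libraries with LPS and ApoA-I, Aif1 had 1195 ± 45.8 TPM, Spi1 801 ± 10.7, Csf1r 601 ± 42.7, Itgam 385 ± 14.5 and Cx3cr1 37.3 ± 3.93 (SD, n = 4), also without overlap. Csf1r thus stood above the other 4 genes in both groups without LPS, in the fourth place with LPS and in the third with LPS and ApoA-I.

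**Figure D1:**
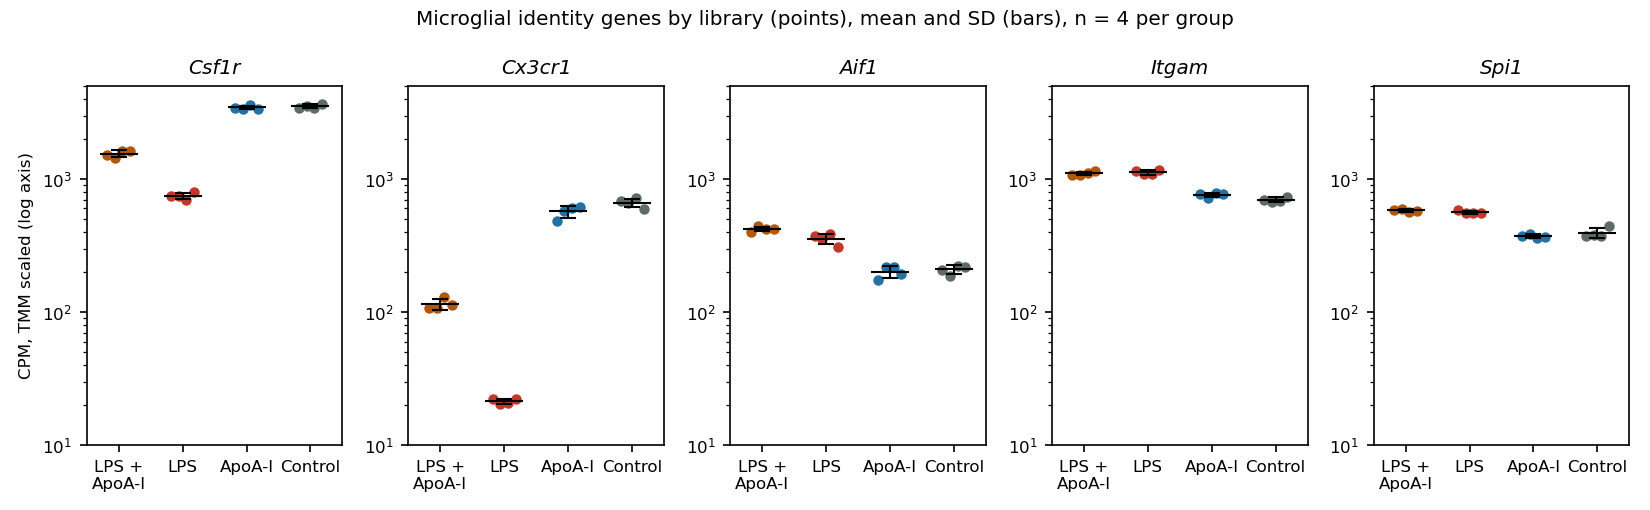
Levels of the 5 genes in each library (points; CPM on a log axis), with the mean and SD of the 4 libraries per group. Csf1r and Cx3cr1 are lowest in LPS libraries (749 and 21.3 CPM on average) and intermediate with LPS and ApoA-I, while Aif1, Itgam and Spi1 are higher in both groups with LPS than in both without.

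The 2 receptors were the genes that LPS lowered. Counts were scaled to CPM, a rate relative to the effective library size, in which TMM factors correct for differences in RNA composition. Csf1r had 1503, 1446, 1617 and 1634 CPM in libraries with LPS and ApoA-I, 751, 743, 698 and 802 CPM with LPS, 3435, 3369, 3604 and 3383 CPM with ApoA-I, and 3446, 3561, 3436 and 3674 CPM in Control. The LPS libraries were the lowest, those with both agents lay between, and neither overlapped any other group. LPS against Control gave a log2 fold change of -2.24 (SE 0.06, edgeR adjusted p = 3.50e-19). Of the 11902 tested genes, 927 had a lower value.

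Cx3cr1 had 107 CPM in each of 2 libraries with LPS and ApoA-I and 130.1 and 113 CPM in the other two, 22.1, 20.4, 20.7 and 22.0 CPM with LPS, 485, 573, 606 and 619 CPM with ApoA-I, and 678, 656, 716 and 599 CPM in Control. As for Csf1r, LPS libraries were lowest and those with both agents lay between, while ApoA-I and Control overlapped. The log2 fold change for LPS against Control was -4.96 (SE 0.09, edgeR adjusted p = 1.09e-21), and 135 tested genes had a lower value. Behind the LPS values were 215 to 280 estimated counts per library, so the transcript remained detectable in all 4.

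Aif1, Itgam and Spi1 moved the other way with LPS. Aif1 had 397, 441, 422 and 422 CPM in libraries with LPS and ApoA-I, 375, 353, 383 and 310.2 CPM with LPS, 174, 218, 217 and 192 CPM with ApoA-I, and 208, 187, 223 and 218 CPM in Control. The groups with LPS lay above those without, and libraries with both agents above LPS alone. For LPS against Control the log2 fold change was 0.77 (SE 0.07, edgeR adjusted p = 3.54e-09).

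Itgam had 1076, 1078, 1113 and 1142 CPM in libraries with LPS and ApoA-I, 1145, 1091, 1083 and 1167 CPM with LPS, 768, 716, 783 and 769 CPM with ApoA-I, and 701, 669.6, 685 and 736 CPM in Control. In CPM the pairs of groups with and without LPS were separate, with overlap inside each pair. On TPM, LPS libraries (332 to 397) overlapped those with ApoA-I (302 to 366). The log2 fold change for LPS against Control was 0.68 (SE 0.05, edgeR adjusted p = 2.01e-11).

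Spi1 had 589, 595, 565 and 572 CPM in libraries with LPS and ApoA-I, 581, 555, 558 and 554 CPM with LPS, 371, 387, 362 and 368 CPM with ApoA-I, and 374, 377, 373 and 441 CPM in Control. Its pattern in CPM matched that of Itgam, with groups split by LPS only. On TPM, Spi1 in LPS libraries (681 to 744) overlapped both ApoA-I (641 to 695) and Control (600 to 725). LPS against Control gave a log2 fold change of 0.52 (SE 0.05, edgeR adjusted p = 4.01e-09).

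With LPS, then, 3 of the 5 genes rose and 2 fell. LPS changed most of the transcriptome: 36.3% of tested genes were called higher and 38.4% called lower, so a call by itself sets none of the 5 apart. Likewise the groups did not overlap in CPM for any of the 5 genes, nor for 67.5% of all tested genes. On TPM, Spi1 did overlap, with 681 to 744 in LPS libraries and 600 to 725 in Control. The median log2 fold change over the 5 genes was 0.52, which is the Spi1 value and does not show the 2 falls. Over all tested genes the median was -0.04. The sizes of the rises depended on the scaling of the libraries. TMM factors ran from 0.812 to 0.916 in LPS libraries and from 1.05 to 1.15 in Control libraries. When only library totals were used, the median of all genes was -0.42, and the log2 fold changes of Aif1, Itgam and Spi1 were 0.38, 0.31 and 0.14. On log2(TPM + 1), with limma, the median was -0.37 and the values were 0.32, 0.27 and 0.11, where Spi1 no longer passed the test (adjusted p = 0.0660). Relative to the median of all genes, the rises of Aif1, Itgam and Spi1 were 0.80, 0.72 and 0.56 with TMM scaling, 0.80, 0.72 and 0.56 with library totals, and 0.69, 0.64 and 0.49 on log2(TPM + 1). A change of library factor shifts all genes alike, and subtracting the median removes that shift. The values with TMM and with library totals therefore match by construction, which is no test of the rises. The falls of Csf1r and Cx3cr1 were -2.62 and -5.34 with library totals and -2.68 and -5.17 on log2(TPM + 1), and passed the test in both.

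**Figure D2:**
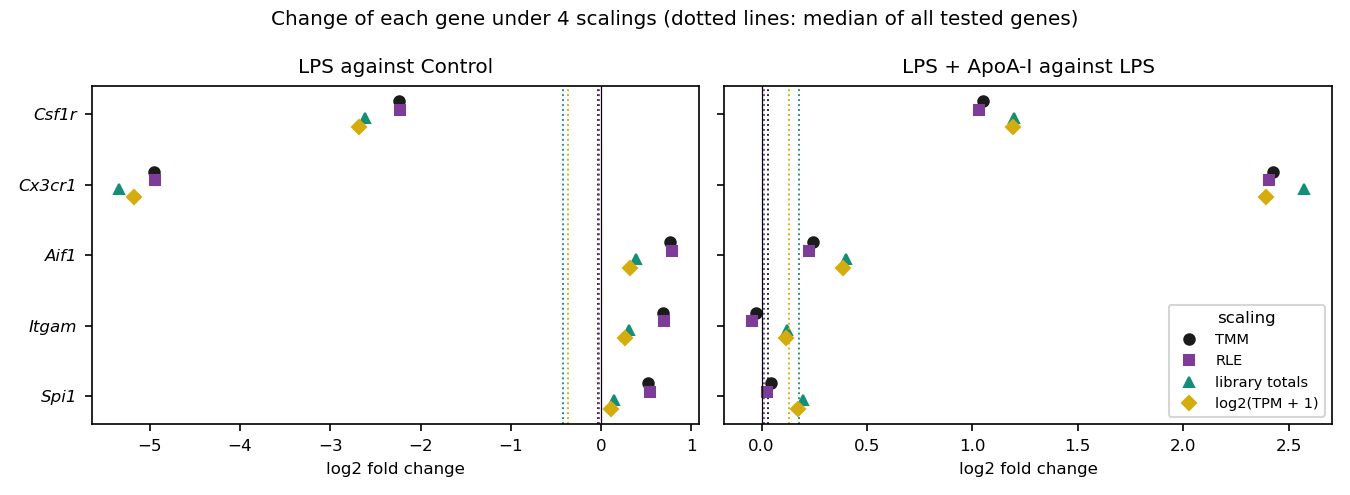
Log2 fold change of each gene (horizontal axis) under 4 ways of scaling the libraries (symbols), for LPS against Control and for LPS with ApoA-I against LPS; dotted lines mark the median of all tested genes under each scaling. The falls of Csf1r and Cx3cr1 with LPS, and their higher values with both agents than with LPS, are far from the medians under all 4. Spi1 with LPS lies between 0.11 and 0.54, and Itgam in LPS with ApoA-I against LPS is on either side of 0.

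Ratios between genes of the same library do not depend on that scaling. Csf1r TPM over Spi1 TPM was 0.750 ± 0.0617 with LPS and ApoA-I, 0.369 ± 0.0236 with LPS, 2.62 ± 0.142 with ApoA-I and 2.57 ± 0.128 in Control (SD, n = 4). Cx3cr1 over Spi1 was 0.0466 ± 0.00510 with LPS and ApoA-I, 0.00885 ± 0.000182 with LPS, 0.361 ± 0.0385 with ApoA-I and 0.403 ± 0.0585 in Control (SD, n = 4). The 2 receptors were therefore lower relative to the transcription factor in every library with LPS than in any without it. Cx3cr1 was also lower relative to Csf1r, and their ratio was 0.0621 ± 0.00423 with LPS and ApoA-I, 0.0240 ± 0.00118 with LPS, 0.138 ± 0.0139 with ApoA-I and 0.157 ± 0.0175 in Control (SD, n = 4). Itgam over Spi1 stayed within a narrow band in all 16 libraries, at 0.481 ± 0.0241 with LPS and ApoA-I, 0.501 ± 0.0214 with LPS, 0.515 ± 0.0336 with ApoA-I and 0.451 ± 0.0212 in Control (SD, n = 4), although its LPS and Control ranges did not overlap. Aif1 over Spi1 was 1.49 ± 0.0651 with LPS and ApoA-I, 1.29 ± 0.118 with LPS, 1.13 ± 0.127 with ApoA-I and 1.12 ± 0.108 in Control (SD, n = 4), with overlap between LPS and Control. In this ratio LPS (up to 1.42) also overlapped LPS with ApoA-I (from 1.39).

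**Figure D3:**
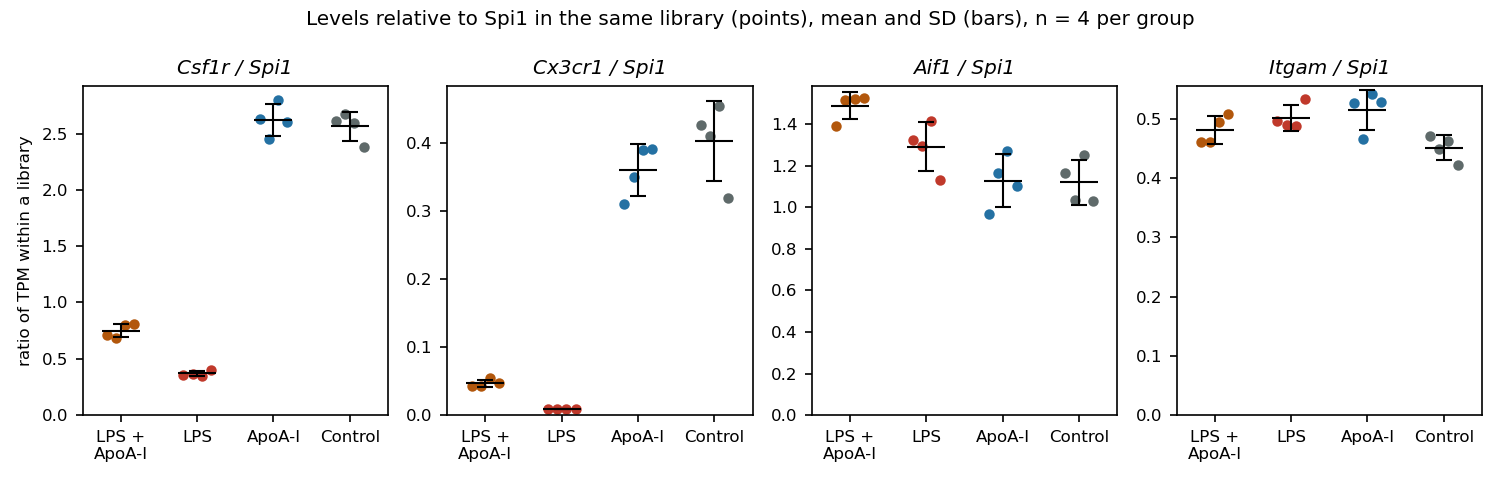
Ratio of each gene's TPM to the Spi1 TPM of the same library (vertical axis; points are libraries, bars are the mean and SD of 4). Csf1r and Cx3cr1 drop relative to Spi1 in both groups with LPS and more so without ApoA-I, while Itgam over Spi1 ranges only from 0.423 to 0.541 over all groups.

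Csf1r, Cx3cr1 and Aif1 were higher with LPS and ApoA-I than with LPS alone, with no call for Itgam and Spi1. Among all tested genes, 26.4% were called higher and 24.9% lower in LPS with ApoA-I against LPS. The groups did not overlap for these 3 genes and for 47.9% of all tested genes. The log2 fold change was 1.05 for Csf1r (SE 0.06, edgeR adjusted p = 9.55e-13), and 715 tested genes had a higher value. For Cx3cr1 it was 2.42 (SE 0.09, edgeR adjusted p = 1.41e-15), and 85 genes had a higher value. LPS libraries enter this comparison and LPS against Control, so the 2 sets of values are not independent. Aif1 had a log2 fold change of 0.24 (SE 0.07, edgeR adjusted p = 0.00796), away from its Control level. Without LPS 4, the LPS library with the lowest Aif1, it was 0.18 (edgeR adjusted p = 0.0414). Itgam had -0.025 (95% interval -0.13 to 0.076; adjusted p = 0.692) and Spi1 0.046 (95% interval -0.059 to 0.15; adjusted p = 0.468). The median over the 5 genes was 0.24, which is the Aif1 value, and over all tested genes it was 0.03. With library totals and on log2(TPM + 1), where the median of all genes was 0.18 and 0.13, Aif1 had 0.40 and 0.38 and Spi1 passed the test with 0.20 (edgeR adjusted p = 0.0104) and 0.17 (limma adjusted p = 0.0132), and Itgam was positive at 0.12 and 0.11 without passing it.

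With both agents the 2 receptors lay between LPS and Control, and how far from LPS depended on the scale used to express it. All libraries were taken at a single end point, and no time or order is given here for ApoA-I. A smaller fall with ApoA-I and a recovery after a fall therefore cannot be told apart. On the log2 scale, libraries with both agents lay 46.9% ± 3.79 of the way from LPS to Control for Csf1r and 48.8% ± 2.67 for Cx3cr1 (SD over those 4 libraries). On the linear CPM scale the shares were 28.8% ± 3.26 for Csf1r and 14.5% ± 1.69 for Cx3cr1 (SD, n = 4). These shares use the LPS libraries in both parts of the ratio and are given without a test. Their SD holds the LPS and Control means fixed, so it leaves out the spread of those groups. Set directly against Control, LPS with ApoA-I left Csf1r 2.28-fold lower (log2 fold change -1.19, SE 0.06, edgeR adjusted p = 2.58e-14) and Cx3cr1 5.79-fold lower (-2.53, SE 0.08, edgeR adjusted p = 1.12e-17). Aif1 stood 2.01-fold above Control in the same comparison (log2 fold change 1.01, edgeR adjusted p = 4.51e-11), Itgam 1.58-fold (0.66, adjusted p = 5.49e-11) and Spi1 1.48-fold (0.57, adjusted p = 1.30e-09). With library totals and on log2(TPM + 1) these log2 fold changes were smaller but still passed the test, at 0.78 and 0.70 for Aif1, 0.43 and 0.38 for Itgam and 0.34 and 0.29 for Spi1. In this comparison 34.4% of tested genes were called higher and 35.2% lower.

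**Figure D4:**
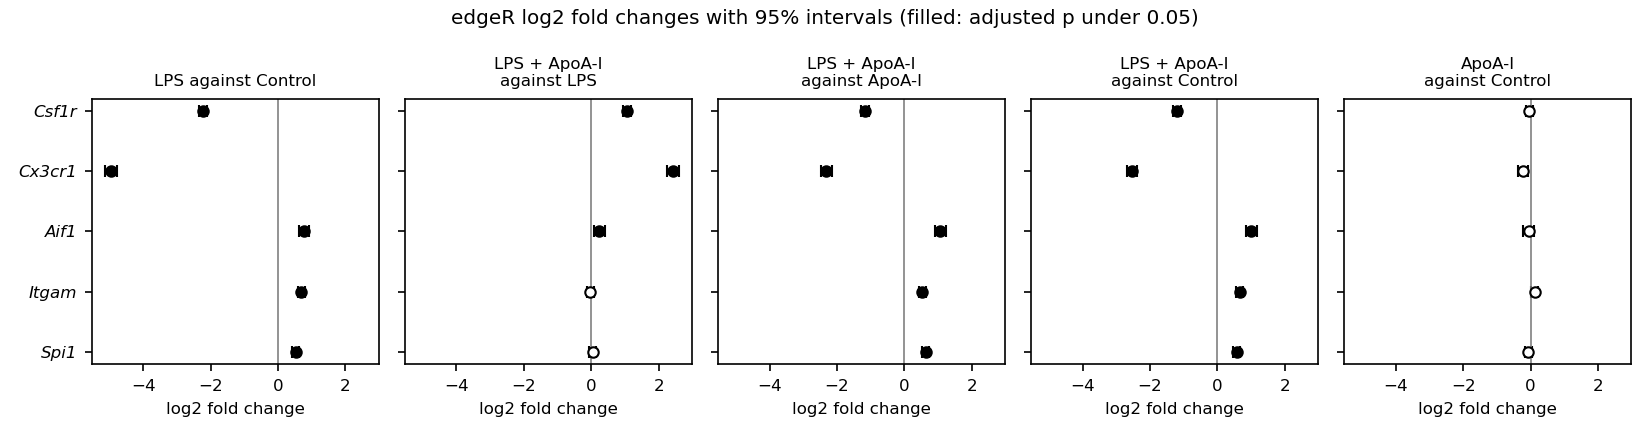
edgeR log2 fold changes (horizontal axis) of the 5 genes in 5 comparisons, with 95% intervals; filled points passed an adjusted p of 0.05. Csf1r and Cx3cr1 are negative for LPS against Control and for LPS with ApoA-I against Control, and positive for LPS with ApoA-I against LPS. All 5 points are open for ApoA-I against Control.

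The LPS response was also read between the 2 groups that were given ApoA-I, which do not enter LPS against Control. In that pair (LPS with ApoA-I over ApoA-I) there was a log2 fold change of -1.15 for Csf1r (SE 0.06, edgeR adjusted p = 4.92e-14) and -2.32 for Cx3cr1 (SE 0.08, edgeR adjusted p = 5.25e-17). The 3 other genes rose in this pair too, Aif1 by 1.07 (SE 0.07, edgeR adjusted p = 1.96e-11), Itgam by 0.54 (SE 0.05, adjusted p = 1.86e-09) and Spi1 by 0.64 (SE 0.05, adjusted p = 1.93e-10). The last 2 again depended on the scaling, with Itgam at 0.25 with library totals (edgeR adjusted p = 0.00387) and 0.19 on log2(TPM + 1) (limma adjusted p = 0.0157), and Spi1 at 0.35 and 0.29. Aif1 had 0.78 with library totals and 0.69 on log2(TPM + 1). All 5 had groups that did not overlap, as did 63.1% of all tested genes. Of all tested genes, 34.5% were called higher and 34.8% lower.

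ApoA-I without LPS gave no call in any of the 5 genes by edgeR at an adjusted p of 0.05, where 4.27% of all tested genes were called in either direction. At an unadjusted p of 0.05, 2 of the 5 passed, as did 18.9% of all tested genes. Cx3cr1 had a log2 fold change of -0.21 against Control (95% interval -0.36 to -0.066; adjusted p = 0.0905), and Itgam had 0.12 (95% interval 0.020 to 0.22; adjusted p = 0.163). Their groups overlapped. DESeq2 called 1 of the 5, Itgam, with 0.13 (adjusted p = 0.0466), and limma on TPM called 0. The Cx3cr1 value passed the edgeR test without Control 4 (-0.26, adjusted p = 0.0282) and without ApoA-I 4 (-0.26, adjusted p = 0.0475). It was smaller and did not pass without ApoA-I 1 (-0.14, edgeR adjusted p = 0.312) or without Control 3 (-0.18, edgeR adjusted p = 0.285). With library totals it was -0.15 (edgeR adjusted p = 0.318). The intervals of Aif1 (-0.21 to 0.093), Csf1r (-0.15 to 0.082) and Spi1 (-0.18 to 0.032) included 0.

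The effect of ApoA-I with LPS was compared with its effect without LPS in the interaction test, which called 20.8% of all tested genes positive and 20.2% negative. Cx3cr1 had a difference of 2.64 log2 units (SE 0.11, edgeR adjusted p = 1.47e-13), and 84 genes had a higher value. Csf1r had 1.08 (SE 0.08, edgeR adjusted p = 4.30e-10), and 795 genes had a higher value. For Aif1 the difference was 0.30 (SE 0.10, edgeR adjusted p = 0.0230), and 3 of the 16 single libraries ended that call when left out: LPS 4 (0.24, adjusted p = 0.0559), ApoA-I 1 (0.24, adjusted p = 0.0521) and Control 3 (0.26, adjusted p = 0.0534). Itgam had -0.15 (95% interval -0.29 to -0.0038, edgeR adjusted p = 0.0932). It passed the test without ApoA-I 2 (-0.17, edgeR adjusted p = 0.0475) and in DESeq2 (-0.17, adjusted p = 0.0149). The Itgam value was nearer to no difference with library totals (-0.060, edgeR adjusted p = 0.669) and on log2(TPM + 1) (-0.079, limma adjusted p = 0.534). Spi1 had 0.12 (95% interval -0.030 to 0.27; adjusted p = 0.193), and 0.057 without Control 4, the Control library with the highest Spi1 (edgeR adjusted p = 0.462).

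The genes nearest to the 5 in pattern were found by the root mean square difference in centred log2 CPM over 16 libraries, among 9345 other genes with at least 5 CPM on average. Within the 5, Itgam and Spi1 were closest at 0.098 log2 units, and Aif1 and Cx3cr1 farthest apart at 2.40. The gene nearest to Csf1r, at 0.062, was ENSRNOG00000012991, with 55.1 ± 0.754 CPM with LPS and ApoA-I, 25.2 ± 1.83 with LPS, 122 ± 2.93 with ApoA-I and 122 ± 1.69 in Control (SD, n = 4). Cx3cr1 had no neighbour as close: ENSRNOG00000018358, at 0.22, had 16.9 ± 0.948 CPM with LPS and ApoA-I, 3.48 ± 0.660 with LPS, 73.5 ± 3.27 with ApoA-I and 82.3 ± 7.29 in Control (SD, n = 4). The nearest to Aif1 was ENSRNOG00000006102 at 0.094, and the nearest to Itgam was ENSRNOG00000019943 at 0.066. Their log2 fold changes for LPS against Control were 0.87 and 0.70, given without a test because the genes were picked for their pattern over these libraries. The distance from Spi1 to its own nearest gene was 0.051.

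Since Spi1 encodes a factor that binds promoters of macrophage genes, the core letters GAGGAA were looked for on both strands in the RefSeq promoter table (GRCr8), which matched 3 of the 5 genes by symbol. It holds 1 transcript start per gene, and the search window was the 250 bases before that start. The RefSeq gene records of the same build begin farther upstream than the start used by the table. As a result 227 bases of the Csf1r window, 96 of the Itgam window and all 250 of the Cx3cr1 window lie inside the gene record, and the Cx3cr1 window begins 1732 bases into it. Csf1r, which fell with LPS, and Itgam, which rose, each had 2 matches, and Cx3cr1 had 0; 23.3% of all 33469 promoters of the table hold the letters. The longer GAGGAAGT (2.04% of promoters, and overlapping the core wherever it occurs) and the composite GGAANNGAA (7.74%) were absent from the 3 windows. The 4 matches are shown with 12 bases on either side, on the strand of the gene, with the matched letters in capitals (TTCCTC is GAGGAA on the other strand). They lie at chr18:56834138-56834167 and chr18:56834272-56834301 for Csf1r and at chr1:192089429-192089458 and chr1:192089541-192089570 for Itgam, all on genes of the plus strand. For Itgam, 1 match lies before the gene record and 1 inside it, and for Csf1r 1 lies across the beginning of the record and 1 inside it.

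Csf1r, 229 bases before the start in the table: agattctgcctcTTCCTCtggtgtgtgtgt
Csf1r, 95 bases before the start in the table: gacaagaacgtgTTCCTCtgttcccatccc
Itgam, 151 bases before the start in the table: tgtgatgtcccaGAGGAAggctacacaggg
Itgam, 39 bases before the start in the table: ggctttagtggcTTCCTCaaagtgtttgtg

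These matches are a description of letters, and no binding was measured. For Cx3cr1 the result says only that these letters are not in a window that lies inside its gene record.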

How the data were processed

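Bulk RNA sequencing of 16 libraries in 4 groups of 4 was used, grouped by sample title. The authors deposited expected counts per gene, which were made, per the submitters' processing notes, with cutadapt 1.8.1, STAR 2.7.10b and RSEM 1.3.1, listed without role or order. They also deposited TPM values per gene, with 1 column per library in both tables. The notes name the mouse build mm10 although the identifiers carry the rat prefix, and no source used here names the rat annotation, so how reads were assigned to single genes was not checked. For the 5 genes, 0 of 80 deposited counts were fractional (tolerance 0.005), against 3.24% of all values.

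Expected counts were rounded, and the filter was filterByExpr with a minimum count of 10. All 16 libraries were fitted together by group in edgeR 4.0.16 (R 4.3.3), with TMM scaling, 12 residual degrees of freedom and quasi-likelihood F tests. Benjamini-Hochberg adjustment ran over all 11902 genes, with a threshold of 0.05. SE is the absolute log2 fold change over the square root of F, and intervals are 95% on the moderated degrees of freedom. Log2 CPM used a prior count of 2. Alternatives were RLE factors, library totals, no filter, only the groups compared, DESeq2 1.42.0, limma 3.58.1 on log2(TPM + 1) and log2(TPM + 0.1), a replicate block and leaving out each library.

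The 5 genes, the lists and the tests were chosen with earlier results of these data known. Leaving out Control 4 and ApoA-I 4 together was added later. Lists of further identity genes and of markers of other cell types had been written by symbol and could not be applied, because identifiers could not be paired with symbols. Genes named beside the 5 are the nearest in pattern, with at most 2 identifiers that rose and 2 that fell. No 2 replicates agreed within counting noise (lowest chi-square over its degrees of freedom 3.06, highest 89.0, in 24 pairs), and each library counted once.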

Additional observations from a re-analysis of the deposited data

Results flagged for a closer look

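By the interaction test, 3 of the 5 genes responded to ApoA-I differently when LPS was present than when it was not: 2.64 log2 units for Cx3cr1, 1.08 for Csf1r and 0.30 for Aif1, the last of which did not hold without any 1 of 3 single libraries. The same test called 20.8% of all tested genes positive and 20.2% negative. Spi1 had 441 CPM in Control 4, far above the other Control libraries at 373 to 377 CPM. Without it, the Spi1 log2 fold change for ApoA-I against Control was -0.010, against -0.073 with it. It had 581 CPM in LPS 1, above the other LPS libraries at 554 to 558 CPM. These were the only libraries that stood apart in this way in 20 sets of 4 (5 genes in 4 groups), and about 1 in 20 such sets would be expected to show one by chance.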

How the results depend on the processing

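Of the 30 tests of the 5 genes (6 comparisons each), 20 kept their direction and their side of the threshold under every alternative run, and 719 of 745 single alternatives did. These 20 include all 10 tests of Csf1r and Cx3cr1 other than ApoA-I against Control. Many of the 745 runs left out a library from a group outside the comparison. Such runs hardly move its log2 fold change, so the 719 includes runs that could hardly fail. For ApoA-I against Control, where no gene passed, the log2 fold change turned positive with library totals for Csf1r (0.026), on log2(TPM + 1) for Aif1 (0.011), Csf1r (0.036) and Spi1 (0.0034), and on log2(TPM + 0.1) for Aif1 (0.011), Csf1r (0.036) and Spi1 (0.0034). Itgam in LPS with ApoA-I against LPS turned positive with library totals (0.12) and on TPM with either pseudocount (0.11). Spi1 in the same comparison passed the test with library totals (0.20) and on log2(TPM + 1) or log2(TPM + 0.1) (0.17 with either), and Spi1 in LPS against Control missed it on both TPM scales (0.11). DESeq2 called Itgam for ApoA-I against Control (0.13) and in the interaction (-0.17). The Itgam interaction was -0.060 with library totals and -0.079 on log2(TPM + 1), and passed in neither. Leaving out single libraries, Aif1 ranged from -0.11 to 0.0018 for ApoA-I against Control and from 0.24 to 0.35 in the interaction, Itgam from -0.17 to -0.13 in the interaction, and Cx3cr1 from -0.26 to -0.14 for ApoA-I against Control. Without both Control 4 and ApoA-I 4, Cx3cr1 passed for ApoA-I against Control (-0.30) and the Aif1 interaction did not pass (0.26). The cause of these changes was not tested.

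Counts of genes called over the whole table stayed within 1.5 times the value used, except for ApoA-I against Control. There 508 genes were called, against 94 with only these groups fitted, 310 on log2(TPM + 1), 238 on log2(TPM + 0.1), 806 with DESeq2, 990 without both Control 4 and ApoA-I 4, and 186 to 775 when single libraries were left out (186 without ApoA-I 1, 284, 325, 202 and 775 without Control 1, 2, 3 and 4). In LPS against Control, 48.6% of called genes were higher with TMM scaling, against 25.5% by library totals and 23.6% on log2(TPM + 1). These 3 shares were 51.4%, 71.8% and 69.9% for LPS with ApoA-I over LPS, 49.8%, 26.7% and 22.4% over ApoA-I, and 49.4%, 31.2% and 27.7% over Control. They were 58.5%, 83.1% and 81.6% for ApoA-I against Control and 50.7%, 65.1% and 60.4% in the interaction. With the replicate number as a block, 8850 genes were called in LPS against Control and 469 in ApoA-I against Control, and no call of the 5 genes changed. Correlations between deviations of same-numbered libraries ran from -0.179 to 0.176 over 24 pairs, with 3 above 0.1. Differently numbered libraries were not compared, so these values cannot settle whether the numbers mark pairs. The numbers were not taken as pairs because no label says that they mark a shared culture or day. The 5 genes had 215 or more counts in every library, and the effect of depth on their tests was not tested.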

Other observations

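The 5 genes together made up 3019 ± 76.5 TPM with LPS and ApoA-I, 2252 ± 45.8 with LPS, 3700 ± 168 with ApoA-I and 3632 ± 127 in Control (SD, n = 4), so the sum was lowest with LPS and intermediate with both agents. Csf1r, the largest of the 5 in Control, went from 1683 TPM there to 263 with LPS and 601 with both agents. Aif1, Itgam and Spi1 had higher mean TPM with LPS than in Control, so the sum does not describe each gene. The estimated count per TPM, scaled in each library by its median over 8468 genes, gives a relative effective transcript length. By it Spi1 was 2.07, Csf1r 7.37, Itgam 8.21 and Cx3cr1 8.81 times as long as Aif1, the shortest. In no group did the mean effective length of any of the 5 genes differ from Control by more than the ratio of 1.02 seen for Aif1 with LPS and ApoA-I, whose single libraries ranged from 0.971 to 1.02 of their mean. For Csf1r the ratio to Control was 1.01 with LPS and ApoA-I and 1.01 with LPS, and for Cx3cr1 it was 0.997 with LPS and ApoA-I.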
